A study of Mus musculus with 386 samples.

Results

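Kidney was compared with brain, liver and lung of the same mice on whole-transcript Affymetrix arrays, in which several short probes report on each transcript cluster. The tissue of an array was read from its source label. This gave 102 kidney arrays, 51 from females and 51 from males. The rest of the series, 85 brain, 101 liver and 98 lung arrays, was set against them. The animals were 111 mice aged 23 days, for which the labels name no treatment, and 67 of them gave all 4 tissues. They belonged to 9 crosses, named with the dam first: the inbred strains CASTxCAST, PWKxPWK and WSBxWSB and the 6 reciprocal F1 crosses CASTxPWK, PWKxCAST, CASTxWSB, WSBxCAST, PWKxWSB and WSBxPWK. All were bred at 1 site from stock a few generations away from purchased founders, and RNA was taken from powdered whole tissue, so a kidney array holds every cell type of the organ and whatever adhered to it. Each cross had 10 to 12 kidney arrays, 5 to 6 per sex.

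The kidney filters plasma at the glomerulus and recovers most of the filtrate along the tubule. The proximal tubule takes back sodium, glucose, amino acids, phosphate and filtered protein through brush-border transporters and endocytic receptors. The thick ascending limb, distal convoluted tubule and collecting duct then set the salt, calcium, water and acid content of urine. Proximal tubule cells also make glucose and break down amino acids and fatty acids, pathways best known from hepatocytes. Around weaning, the age sampled here, these segments are all in place.

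All values are log2 signals, so a difference of 1 unit is a 2-fold ratio. The kidney difference of a gene is its mean in kidney minus the mean of brain, liver and lung, with the 9 crosses weighted equally, and stands in brackets after the gene, with ± its standard error where given. For the 87 genes named by rank that error was 0.02 to 0.094. A gene was called higher or lower when the difference was at least 1 log2 unit at an adjusted p under 0.05 (limma, Benjamini-Hochberg over 18820 genes). Of 18820 genes, 1727 were called higher in kidney (9.18%) and 1886 lower (10%), and the largest adjusted p among them was 5.07e-16. With this many arrays the size threshold made the call for nearly all genes, since 16612 genes passed the adjusted p alone and 2 genes reached 1 log2 unit without being called. Labels make the arrays separate animals within a tissue, and the number of arrays limits the precision. A lower signal in whole tissue may mean fewer cells of a type or less RNA per cell, and these cannot be told apart.

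The 3 genes used to check the kidney label separated it from the other tissues on every array. Mep1a, a brush-border metalloprotease, lay between 12.51 and 12.97 in kidney, with a median of 12.73, while its median was 4.20 in brain, 4.71 in liver and 4.23 in lung and its highest value elsewhere was 8.88. Umod, which encodes uromodulin, the main protein of normal urine, ran from 12.93 to 13.46 in kidney against medians of 4.93, 5.06 and 5.01. Slc5a12, a sodium-coupled lactate transporter, ran from 12.29 to 13.17 against medians of 4.29, 4.49 and 4.92. None of the 102 kidney arrays overlapped with any other array for these genes. The mean of the 3 markers ran from 12.67 to 13.05 in kidney, and 9 liver and 18 lung arrays exceeded every brain array for it, up to 9.04 in liver and 9.41 in lung.

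Genes of neighbouring organs were present on part of the kidney arrays. The mean of Star, Cyp11a1 and Cyp11b1, which serve steroid synthesis in the adrenal gland, had a median of 4.73 in kidney and never exceeded 5.32 outside it. In 26 kidney arrays, 19 from females and 7 from males in 8 crosses, it was above that level, by over 3 log2 units in 11 of them and up to 11.26. Of the 12 adrenal genes listed, 0 were called higher in kidney. Of the 16 listed hepatocyte enzyme genes, Cyp2f2, which was high in lung, and Slc10a1 and Baat, called higher in kidney, were left out of the mean used here. The mean of the other 13 had a median of 4.85 in kidney and reached 8.11, with 17 kidney arrays above every brain array, against 12.07 or more in liver. Without the 26 arrays, 1717 of the 1727 higher and 1880 of the 1886 lower genes were still called, and without the 44 arrays of kidney, liver and lung that carried genes of another organ 1719 and 1879 were. Fat and urothelium genes were also present in kidney and are given with their values after the nephron segments.

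Against the mean of the other tissues the kidney differences were lopsided in size, and this measure favours such a split. A gene high in kidney alone keeps its full difference, whereas a gene high in 1 other tissue has that difference averaged over 3 tissues. The 16 hepatocyte enzyme genes had a median of -7.33 against liver and -2.52 against the mean. The part of the measure in the counts below was not tested. Kidney was higher by at least 4 log2 units for 191 genes and lower by at least 4 for 13, and it was higher by at least 6 for 46 genes and lower by that much for 0. Every kidney array lay above every array of the other tissues for 458 genes (2.43%), and below them all for 43 (0.228%). Against single tissues, kidney was higher than brain for 3164 genes (16.8%) and lower for 2901 (15.4%). It was higher than liver for 2229 (11.8%) and lower for 1202 (6.39%), and higher than lung for 2019 (10.7%) and lower for 2389 (12.7%). The median difference over all genes was -0.02, and it was -0.131 when each array was centred on its median. That centring turned the split against liver into 1496 higher and 2201 lower genes, while against the mean of the other tissues it gave 1516 and 2179.

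Beyond the label markers, the 20 genes with the largest kidney differences included carriers, receptors, enzymes and secreted proteins. Slc7a12 (7.94 ± 0.04), an amino acid transporter of the proximal tubule, had medians of 11.57 in kidney, 3.46 in brain, 3.79 in liver and 3.33 in lung, and its lowest kidney array, at 10.79, was above the highest of the others, at 6.46. Kap (7.88 ± 0.07), the kidney androgen-regulated protein gene, ran from 12.10 to 12.81 in kidney and reached 8.87 elsewhere. Slc6a19 (7.69 ± 0.05) and Slc6a18 (7.63 ± 0.04) encode transporters of neutral amino acids at the brush border, and Cltrn (7.63 ± 0.04) encodes collectrin, which carries them to the membrane. All 3 were above every other array in 102 of 102 kidney arrays.

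The remaining genes among the 20 fell between 6.96 and 7.67. They included the loop diuretic target Slc12a1 (7.67 ± 0.04) and the thiazide target Slc12a3 (7.22 ± 0.05), the phosphate transporter Slc34a1 (7.41 ± 0.08), the sulfate transporter Slc13a1 (7.27 ± 0.04) and the monocarboxylate transporter Slc5a8 (7.23 ± 0.05). Cubn (7.07 ± 0.04), the receptor for filtered protein and vitamin carriers, Kcnj1 (7.02 ± 0.04), the potassium channel of the thick ascending limb, Slco1a6 (7.0 ± 0.03), an organic anion carrier, and Dao (6.96 ± 0.05), D-amino acid oxidase, were also among them. Serpina1f (7.36 ± 0.03), Lrrc19 (7.04 ± 0.04) and Acsm2 (6.99 ± 0.05), an acyl-CoA synthetase, completed the group. None of the 20 overlapped between kidney and the other tissues on any array, as was so for 2.43% of all genes above the rest. The 20 were picked for size on these same arrays, so this separation is no separate support. Across the 9 crosses, their within-cross difference varied by 0.269 to 1.258 log2 units.

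**Figure D1:**
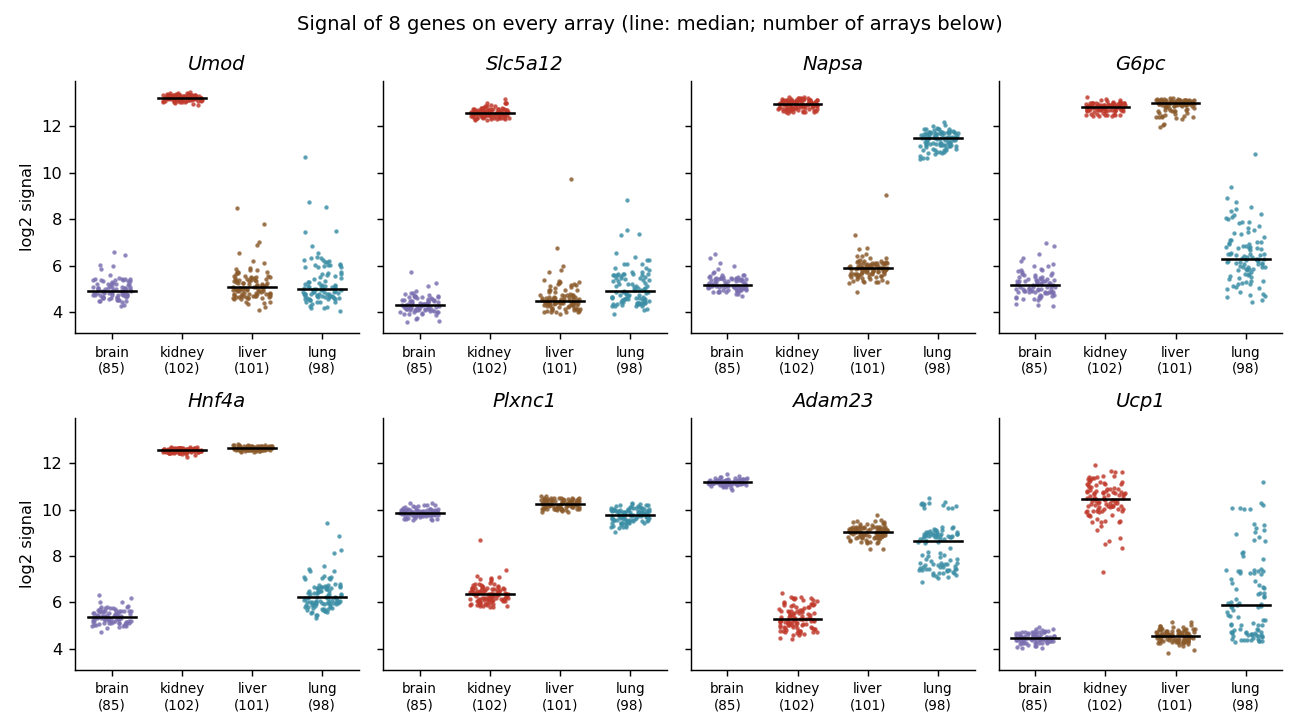
Log2 signal of 8 genes on every array, by tissue, with 1 point per array and a black line at the median. Umod and Slc5a12 are high in kidney, Napsa in kidney and lung, G6pc and Hnf4a in kidney and liver, and Plxnc1 and Adam23 are low in kidney, while Ucp1 spreads from 7.32 to 11.91 in kidney.

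Along the nephron, most segments were led by genes for which kidney was the highest tissue, called against each of the other 3 tissues singly (556 genes, 2.95% of all). These and the later lists were chosen with earlier results of these data known. They also hold label markers and ranked genes named above, so their counts are descriptions and not tests. In the thick ascending limb, 10 of 10 measured genes were higher and all 10 were highest in kidney, with a median difference of 4.39. Next to Umod, Slc12a1 and Kcnj1 these were the tight-junction genes Cldn16 (5.68), Cldn19 (4.34) and Cldn10 (3.5), which shape the calcium and magnesium pathway, the calcium-sensing receptor Casr (4.26), the prostaglandin receptor Ptger3 (3.60), Tmem72 (4.44) and the phosphatase inhibitor Ppp1r1a (3.80). Cldn10 had medians of 11.96 in kidney, 10.05 in brain, 9.62 in lung and 5.71 in liver, and its 102 kidney arrays still lay above every other array.

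Proximal tubule genes had the largest list median. All 19 measured genes for sodium-coupled and basolateral transport were higher in kidney, 14 of them highest, with a median difference of 6.21. The glucose carrier Slc5a2 (6.92), the phosphate carrier Slc34a3 (5.98), the sodium-proton exchanger Slc9a3 (6.45) and the cystine transporter subunit Slc7a9 (6.21) were low in the other 3 tissues, with 102 of 102 kidney arrays above all others for each. The glucose exit carrier Slc2a2 (3.38) and Slc17a3 (4.84) were also high in liver, and the bicarbonate carrier Slc4a4 (1.81), the glutamate carrier Slc1a1 (3.18) and the water channel Aqp1 (2.41) missed the call against at least 1 other tissue. Of 18 genes for endocytosis and the brush border, 18 were higher and 12 highest, with a median of 4.66. Lrp2 (5.69), the megalin receptor, and its partner Amn (4.24) belonged to the 12, and the peptidases Anpep (1.64), Enpep (1.65) and Mme (1.79) did not, with differences from lung of 0.70, -0.10 and 0.03. For 7 genes of the straight segment 6 were higher, among them the transporters Slc7a13 (5.98) and Slc22a19 (6.03), and 1 was lower, the oxysterol hydroxylase Cyp7b1 (-2.42).

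In the distal convoluted and connecting tubule, 11 of 12 genes were higher with a median of 5.02, and the kinase gene Wnk1 was not (0.47). Egf (6.66), Tmem52b (6.45), the FGF23 co-receptor Kl (5.75), the calcium-binding genes Calb1 (5.54) and S100g (5.32), the calcium channel Trpv5 (4.72) and the kinase Wnk4 (3.68) were highest in kidney. Principal cell genes were higher in 9 of 10 cases, with a median of 3.48. Hsd11b2 (6.15), which inactivates glucocorticoids, and the water channels Aqp2 (5.58) and Aqp3 (4.86) led them, while the mineralocorticoid receptor gene Nr3c2 showed -0.03. The 3 subunits of the epithelial sodium channel, Scnn1a (1.96), Scnn1b (3.70) and Scnn1g (3.27), were called higher than in brain and liver, and differed from lung by -0.75, -0.37 and -1.03.

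All 15 intercalated cell genes, which serve acid and base secretion, were higher in kidney, 11 of them highest, with a median of 3.41. Rhcg (6.28), an ammonia channel, the proton pump subunits Atp6v1b1 (5.12) and Atp6v1g3 (4.99), Aqp6 (5.0), the chloride-bicarbonate exchanger Slc26a4 (4.94) and the transcription factor Foxi1 (3.25) belonged to the 11. Over all 20 measured V-ATPase genes, 5 were higher (25%) and 2 lower (10%, the same share as over all genes). The lower ones were Atp6v0a1 (-1.29) and Atp6v1g2 (-1.05). Podocyte genes had the lowest median of the nephron lists, 1.6, with 7 of 10 higher. Nphs1 (3.06), which encodes nephrin of the slit diaphragm, and Wt1 (2.61) were highest in kidney. Podxl (1.64), Clic5 (1.56) and Tcf21 (1.97) differed from lung by -0.44, -1.89 and -0.98, and Plce1 was not called (-0.67). Nphs1 has several clusters on the array, and the dimmest showed -0.07.

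**Figure D2:**
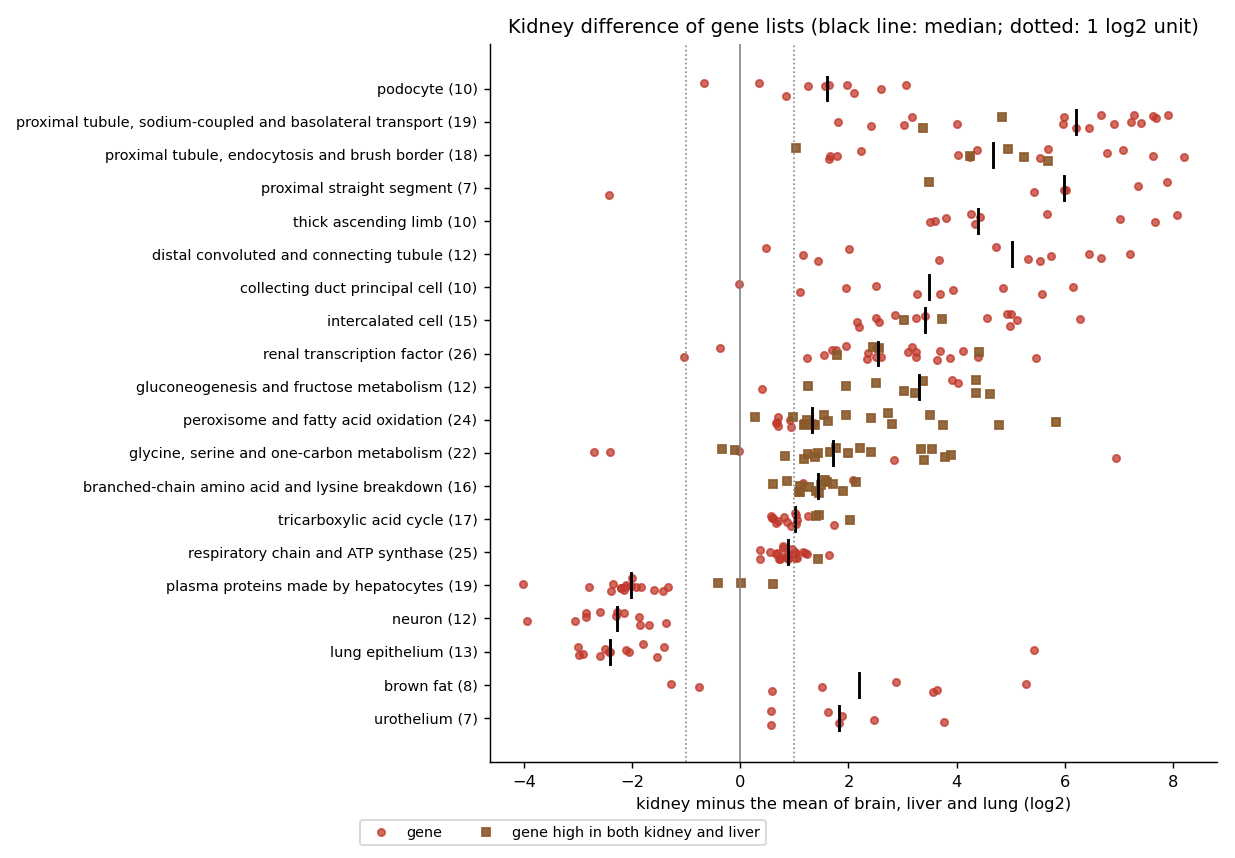
Kidney difference (kidney minus the mean of brain, liver and lung, log2) of each measured gene of 20 lists, with the number of genes in brackets, the list median as a black line and dotted lines at 1 log2 unit. Nephron lists have medians from 1.6 to 6.21, genes also high in liver are drawn as squares, and plasma protein, neuron and lung epithelium lists lie mostly below zero.

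Hormone and mineral genes of the kidney were higher in 9 of 10 cases. Vdr (5.15), the vitamin D receptor, Pth1r (4.25), the receptor for parathyroid hormone, Cyp27b1 (3.66), which activates vitamin D, and Cyp24a1 (2.93), which breaks it down, were highest in kidney. Epo (1.38), the erythropoietin gene, was called with kidney values from 4.01 to 7.68 and a highest value elsewhere of 4.82. Agt, which encodes angiotensinogen, was lower (-1.07), while the receptor Agtr1a (1.62) and the converting enzyme Ace (1.98) were higher. Among 22 carriers of organic anions and cations, 18 were higher and 1, the hepatic carrier Slco1a1 (-2.10), was lower. Slc22a13 (6.41), Slc22a2 (6.01), the urate carrier Slc22a12 (5.95) and the drug carriers Slc22a6 (5.88) and Slc22a8 (5.26) were highest in kidney, while 7 of the 22 were shared with liver, among them Slc47a1 (3.91) and the export pump Abcc2 (3.54).

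Of 26 transcription factor genes of renal development or function, 24 were higher in kidney, 14 were highest and 1 was lower. Pax8 (5.47), Tfap2b (4.40), Osr2 (4.13), Esrrb (3.88), Sim1 (3.70), Emx2 (3.64), Pax2 (3.17) and Lhx1 (3.10) were highest in kidney. Hnf4a (4.41), Nr1h4 (2.46), Ppara (1.78) and Hnf4g (2.56) were high in both kidney and liver. Irx1 (1.54), Irx2 (1.23), Irx3 (2.36) and Mecom (2.52) differed from lung by -0.65, -0.62, 0.34 and 0.46, and for Irx3 and Mecom a dimmer cluster gave 0.17 and 0.61. Osr1, which acts early in nephron formation, was not called (-0.37), and Bhlhe41 was lower (-1.04).

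Hox genes, which mark position along the body axis, included a kidney-high group. Of 36 measured, 19 were higher (52.8%, against 9.18% of all genes), 17 highest (47.2%, against 2.95%) and 0 lower. All kidney arrays were above every other array for 16 of the 36, and for 2.43% of all genes. Hoxd8 ran from 10.80 to 11.44 in kidney, with medians of 11.17 in kidney, 4.44 in brain, 4.80 in liver and 5.35 in lung, a difference of 6.28 ± 0.03. Its kidney arrays did not overlap with any other array. Hoxd10 (4.37), Hoxd9 (4.10), Hoxa9 (3.84), Hoxa10 (3.66), Hoxc10 (3.64), Hoxb9 (3.32) and Hoxc6 (3.10) followed. By paralogue number, a grouping made after the values were seen, 16 of 17 genes numbered 6 to 11 were higher with a median of 2.73, against 3 of 14 numbered 1 to 5 with a median of 0.45 and 0 of 5 numbered 12 and 13 with a median of 0.03. Hoxc11 (0.41) was the gene of the middle group not called. Hoxa5 had a mean of 9.14 in lung and 7.49 in kidney, and Hoxa2 differed by -0.75 in kidney.

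**Figure D3:**
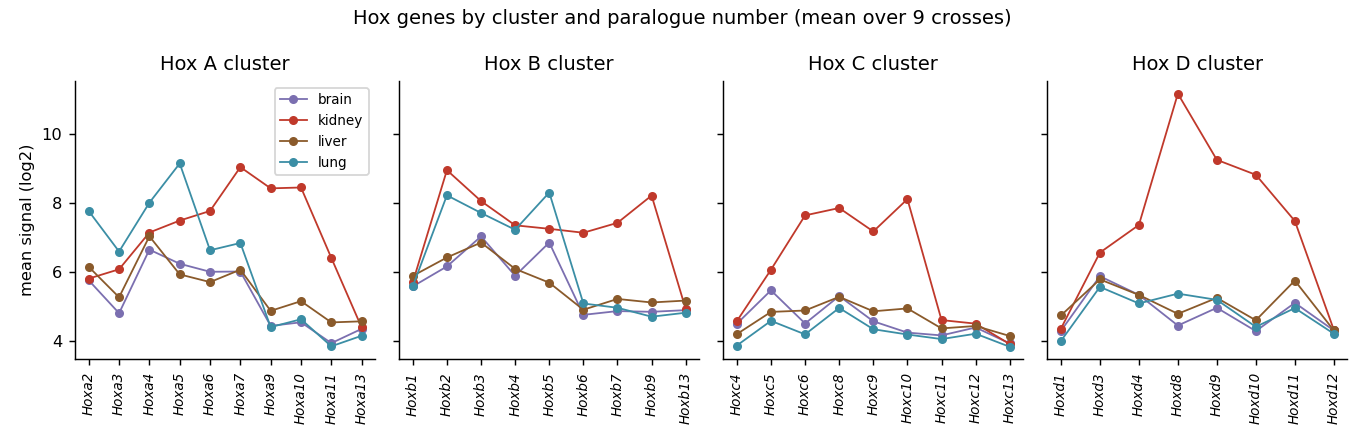
Mean log2 signal of 36 Hox genes in the 4 tissues, ordered within each cluster by paralogue number, each point the mean over 9 crosses. The kidney line lies above the other tissues for the genes numbered 6 to 11, by 0.41 to 6.28 log2 units over their mean. It meets the other tissues at 12 and 13, while lung is highest at Hoxa2, Hoxa3, Hoxa4, Hoxa5 and Hoxb5.

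Genes of fat and of the urinary tract lining were part of the kidney profile. Of 8 brown fat genes 5 were higher and highest in kidney, led by Ucp1 (5.29), the uncoupling protein of thermogenic fat, and Cidea (3.57). Ucp1 spread from 7.32 to 11.91 over the kidney arrays with a median of 10.46, while 13 of the 102 exceeded the highest other array, a lung array at 11.17. Over the whole list the kidney mean ran from 6.59 to 9.70, against 5.74 to 8.74 in lung. Dio2 was lower in kidney (-1.28). Of 7 white fat genes 5 were higher, including Adipoq (2.83), Plin1 (2.89) and Fabp4 (2.90), and of 7 urothelial genes 5 were higher, including the uroplakin Upk1a (3.77), which lay above every other array in 102 kidney arrays. The part of adhering tissue in these kidney values was not tested.

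The factors HNF1 and HNF4 are known to act on genes of the proximal tubule and the liver. Promoters of 7 genes that are high in kidney, or in kidney and liver, are printed. The 7 were taken from genes with a motif match, so they do not show how common matches are. HNF1 proteins bind as pairs to sites whose arms read GTTAAT, and HNF4 binds sites such as CAAAGTCCA. Windows of 300 bases, from 250 before to 50 after each start in RefSeq (GRCm38.p6), were available for 28 of the 35 genes with the largest kidney or kidney-and-liver differences, and 10 of the 28 held a motif in the 250 bases before a start, on either strand. The remaining genes of the 28, such as Mep1a, Slc12a1, Cubn and Dio1, held none, nor did the other windows of Cltrn and Hnf4a. No like share per gene was computed over all genes. The 250 bases before the start are given 5′ to 3′ on the gene's strand with each motif match in capitals. Umod (chr7:119479263-119479512, minus strand) and Slc34a1 (chr13:55399398-55399647, plus strand) were highest in kidney, as was Cltrn (chrX:164089937-164090186, plus strand, 1 of 2 windows). Ugt3a1 (chr15:9279579-9279828), G6pc (chr11:101367466-101367715), Hnf4a (chr2:163546905-163547154, 1 of 2 windows) and Aadat (chr8:60505874-60506123), all on the plus strand, were high in kidney and liver.
Umod: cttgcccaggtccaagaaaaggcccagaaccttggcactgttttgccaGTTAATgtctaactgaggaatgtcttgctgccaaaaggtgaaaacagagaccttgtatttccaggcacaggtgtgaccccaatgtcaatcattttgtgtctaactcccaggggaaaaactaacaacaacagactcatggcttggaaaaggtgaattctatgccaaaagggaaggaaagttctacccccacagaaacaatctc
Slc34a1: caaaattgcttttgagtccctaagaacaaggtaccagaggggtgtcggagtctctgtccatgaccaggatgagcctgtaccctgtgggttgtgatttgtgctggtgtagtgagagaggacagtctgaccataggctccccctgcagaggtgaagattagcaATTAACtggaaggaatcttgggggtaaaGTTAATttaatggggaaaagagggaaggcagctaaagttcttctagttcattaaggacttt
Cltrn: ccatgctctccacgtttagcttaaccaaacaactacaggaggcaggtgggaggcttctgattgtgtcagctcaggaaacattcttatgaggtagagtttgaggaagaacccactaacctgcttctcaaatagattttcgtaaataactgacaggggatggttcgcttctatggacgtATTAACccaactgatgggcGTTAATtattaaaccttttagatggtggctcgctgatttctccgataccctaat
Ugt3a1: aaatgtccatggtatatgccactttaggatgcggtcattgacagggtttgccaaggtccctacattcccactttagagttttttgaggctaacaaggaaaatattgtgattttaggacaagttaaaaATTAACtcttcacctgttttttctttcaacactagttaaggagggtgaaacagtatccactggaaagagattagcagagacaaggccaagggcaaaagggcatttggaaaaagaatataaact
G6pc: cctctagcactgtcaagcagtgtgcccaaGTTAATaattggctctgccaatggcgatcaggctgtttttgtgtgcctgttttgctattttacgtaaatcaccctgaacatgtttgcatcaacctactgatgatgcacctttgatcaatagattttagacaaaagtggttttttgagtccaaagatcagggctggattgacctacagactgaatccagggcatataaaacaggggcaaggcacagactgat
Hnf4a: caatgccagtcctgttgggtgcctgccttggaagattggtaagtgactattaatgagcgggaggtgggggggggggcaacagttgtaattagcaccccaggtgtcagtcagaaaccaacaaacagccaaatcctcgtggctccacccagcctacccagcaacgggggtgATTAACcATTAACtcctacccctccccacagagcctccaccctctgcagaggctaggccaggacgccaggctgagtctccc
Aadat: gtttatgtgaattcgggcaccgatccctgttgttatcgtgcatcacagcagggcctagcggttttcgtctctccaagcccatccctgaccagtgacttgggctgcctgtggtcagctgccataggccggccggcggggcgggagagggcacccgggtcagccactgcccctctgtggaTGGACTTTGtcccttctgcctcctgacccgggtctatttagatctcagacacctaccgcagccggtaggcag

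The arm GTTAAT, or its reverse complement, was in 6.05% of the 18141 windows of all tested genes. It was in 10.4% of 500 windows of genes highest in kidney and in 10.1% of 645 windows of genes high in kidney and liver, against 5.06% of 79 windows of genes lowest in kidney and 5.34% of 599 windows of genes low in both. In Slc34a1 matches began 89 and 61 bases before the start, in Cltrn 73 and 54 and in Hnf4a 81 and 74. CAAAGTCCA was in 0.447% of all windows, in 2.02% of the windows of genes high in kidney and liver and in 0.800% of those of genes highest in kidney, and among the printed genes in Aadat, 72 bases before the start. For genes high in kidney and lung the shares were 5.04% and 0.219%. These shares are descriptions of letters in a window and were not tested.

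A large block of kidney-high genes was shared with liver. In 640 genes (3.4%) both kidney and liver were called above both brain and lung, and of the 1727 kidney-high genes 454 belonged to this block. By comparison 489 genes (2.60%) were shared in the same way with lung and 246 (1.31%) with brain. Of the 640, 450 had kidney and liver within 1 log2 unit of each other, 138 were higher in liver by more and 52 higher in kidney, and the median kidney minus liver was -0.19. With each array centred on its median, 830 genes were high in both kidney and liver and 419 low in both, beside 640 and 545.

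The 15 shared genes with the widest margin over brain and lung included Hnf4a, a nuclear receptor that drives hepatocyte and proximal tubule genes. Hnf4a ran from 12.27 to 12.69 in kidney (median 12.55) and from 12.47 to 12.83 in liver (12.64), and had medians of 5.36 in brain and 6.21 in lung. Kidney and liver overlapped and both lay above every brain and lung array. G6pc, the last enzyme of glucose release, ran from 12.43 to 13.27 in kidney and from 11.99 to 13.23 in liver, with medians of 5.18 in brain and 6.31 in lung, where 1 array reached 10.81. Dio1, which activates thyroid hormone, had medians of 11.53 and 11.63 in kidney and liver against 4.71 and 4.87, and Cyp2j5, an arachidonate epoxygenase, 11.97 and 12.10 against 4.24 and 4.95.

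Kidney exceeded liver for some of the 15 and stayed below it for others. Hao2, a peroxisomal hydroxyacid oxidase, was 1.52 higher in kidney than in liver, Aadat, which handles kynurenine and aminoadipate, 1.23, Cyp4a31, a fatty acid hydroxylase, 1.03, and Keg1 1.02. For Hao2 and Aadat each of the 102 kidney arrays lay above every other array, while for Keg1 69 did. Aadac, an esterase, was lower in kidney than in liver by -1.15 and Aldh8a1 by -0.57. Ugt3a1 (0.23), Serpina6 (0.03), which encodes the corticosteroid carrier of plasma, Spp2 (0.56), Cdhr5 (0.68), a brush-border cadherin, and Cyp4a14 (0.70) completed the group. Cyp4a14 ranged from 9.80 to 12.55 in kidney and from 5.91 to 12.68 in liver.

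Glucose production and fructose use were shared between kidney and liver. Of 12 measured genes 11 were higher in kidney, 9 were shared with liver and the median kidney minus liver was 0.02. Pck1 (4.36), Fbp1 (4.36), G6pc (4.62) and its partner Slc37a4 (1.95), and the fructose enzymes Khk (3.23) and Tkfc (2.52) had kidney minus liver values of 0.17, 0.00, -0.09, -0.05, 0.04 and 0.10. The fructose carrier Slc2a5 (3.91) and the muscle-type Fbp2 (4.02) were highest in kidney instead, and Pck2, the mitochondrial form, was not called (0.39).

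Amino acid breakdown was shared with liver in part. Of 16 genes for branched-chain and lysine breakdown 14 were higher in kidney and 14 were shared with liver, including Gcdh (1.90), Aass (2.14), Aldh6a1 (1.6) and Bckdha (1.48), while Bcat2 (2.08), the first step outside liver, was highest in kidney. Of 22 glycine, serine and one-carbon genes 16 were higher, 17 shared with liver and 2 lower, and the median kidney minus liver was -1.0. Gatm (2.84), the first enzyme of creatine synthesis, was highest in kidney, whereas Gamt, the second, was not called (-0.03). Mat1a (-2.70) and Agxt (-2.42) were lower. Of 10 genes for aromatic amino acids 8 were higher and shared, such as Acmsd (5.04), Hgd (4.05) and Hpd (4.01), and the entry enzymes Tdo2 (-3.05) and Tat (-2.51) were lower. For the urea cycle and its neighbours 5 of 12 were higher, all shared with liver, among them Asl (1.76) and Prodh2 (2.50), and 4 were lower: Cps1 (-2.79), Otc (-2.62), Arg1 (-2.50) and Nags (-1.67). These lower calls are against a mean that includes liver. Against liver 6 of the 12 urea cycle genes, 11 of the 22 in the glycine group and 4 of the 10 aromatic genes were lower. Against brain 1, 0 and 0 were lower, and against lung 1 in each group.

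Fatty acid oxidation in peroxisomes and mitochondria was shared as well. Of 24 genes 16 were higher, 16 were shared with liver and the median kidney minus liver was -0.14. Slc27a2 (3.75), Ehhadh (3.5), Acox2 (2.80), Acaa1b (2.72) and Acadm (1.95) were examples, and Cat (0.65) and Cpt1a (0.94) stayed under the threshold. In inositol and uronic acid metabolism Miox (6.54), which opens the inositol ring, had a kidney mean of 13.28 and a liver mean of 9.30, with brain and lung at 5.23 and 5.69, and Slc5a11 (4.69) and Slc5a3 (2.59), inositol carriers, were highest in kidney. Gulo (-2.61), the last step of vitamin C synthesis, and Rgn (-1.17) were lower. Of the 9 measured genes of this list 2 were below liver and 0 below brain or lung. Rgn was the 1 gene both called lower in kidney than the mean of the others and shared with liver, since its liver mean of 11.54 stood above a kidney mean of 5.54.

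Genes of the citric acid cycle and respiratory chain were higher by less. Of 17 cycle genes 9 were higher (52.9%, against 9.18% of all genes) and 0 lower, with a median of 1.01, led by Suclg2 (2.02) and Idh2 (1.73). Of 25 respiratory chain genes 10 were higher and 0 lower, with a median of 0.87, and Ndufb8 (1.64) had the largest difference. Kidney minus liver had medians of 0.44 and 0.45 for these lists. Ribosomal protein genes gave 1 higher and 0 lower of 68, with a median of 0.27.

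**Figure D4:**
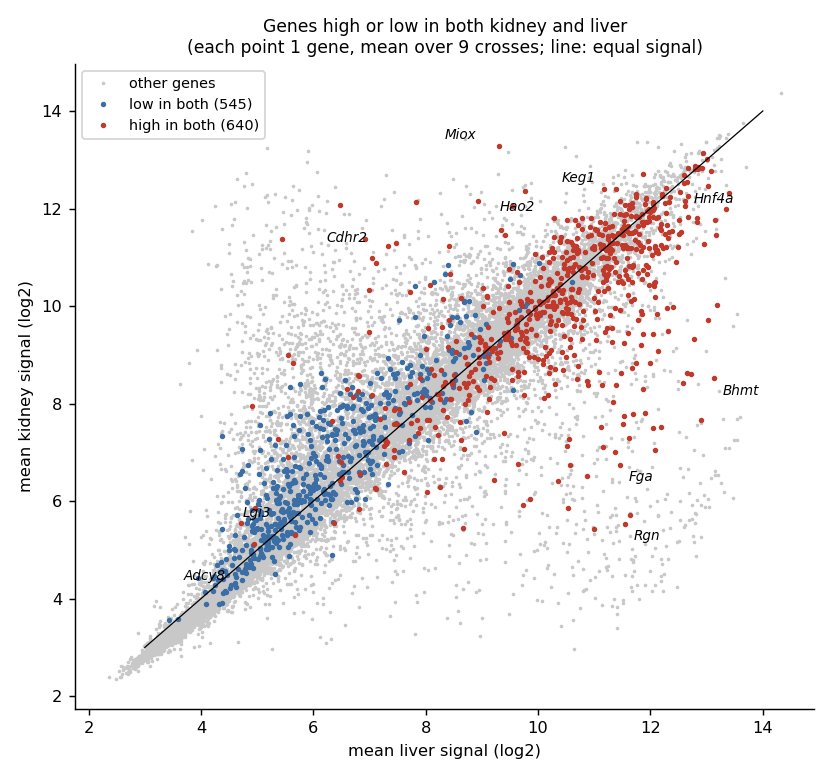
Mean kidney against mean liver log2 signal of 18820 genes, each point 1 gene, with 640 genes called above both brain and lung in kidney and liver in red, 545 called below both in blue, and a line of equal signal. Most shared genes lie near the line, while Miox and Cdhr2 lie on the kidney side and Bhmt, Fga and Rgn on the liver side.

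Genes for plasma proteins made by hepatocytes were lower in kidney than in liver in 19 of 19 cases, with a median of -5.86. Against brain, 12 of the 19 were higher in kidney and 2 lower, with a median of 1.05, and against lung 3 were higher and 7 lower, with a median of -0.72. Against the mean of the 3 tissues, which includes liver, 0 were higher and 16 lower, with a median of -2.03. Alb (-1.34), Trf (-2.79), Ttr (-4.02) and Rbp4 (-2.36) were examples. The other 3, Kng1 (0.61), Apoc3 (0.01) and Fga (-0.41), were shared with liver above brain and lung without a call against the mean, and a dimmer Fga cluster gave -1.13. Of 16 hepatocyte enzyme genes all 16 were lower than in liver, 0 were lower than in brain and 14 were lower than the mean of the 3 tissues, and the bile acid carrier Slc10a1 (1.26) and Baat (1.95), a bile acid enzyme, were higher and shared. Since 17 kidney arrays carried some hepatocyte signal, the values without them and the other arrays with genes of another organ were compared. Of 507 listed genes 7 then changed their call.

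Of the 1886 lower genes 1163 had their highest mean in brain, 369 in liver and 354 in lung, and kidney was the lowest tissue for 766. All 12 neuron genes were lower, from Syt1 (-3.95) and Stmn2 (-3.06) to Map2 (-1.38), and kidney differed from liver by a median of 0.29 for them. Against brain all 12 were lower, against liver 1 and against lung 3. Of 86 potassium channel genes 37 were lower (43%) and 8 higher (9.3%, near the share of all genes), with Kcnq5 (-3.32) and Kcnj3 (-2.58) lowest and Kcnj1 (7.02), Kcnj16 (5.26) and Kcnj15 (4.81) highest. In lung epithelium 12 of 13 genes were lower, and the exception, Napsa (5.43), encodes an aspartic protease made by alveolar and proximal tubule cells. Of the 13, 12 were below lung, 1 below brain and 1 below liver.

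The 20 genes with the most negative kidney differences were each high in more than 1 other tissue. Vsnl1, a neuronal calcium sensor, had medians of 13.28 in brain, 11 in lung, 5.12 in liver and 4.95 in kidney, a difference of -4.66 ± 0.05. Kidney and liver arrays overlapped, and 8 kidney arrays lay below every other array. Hc (-4.33), complement C5, Vtn (-4.30), vitronectin, Itih3 (-4.23), Ttr (-4.02), Lcat (-3.98), Pon1 (-3.74) and Serpina3n (-3.67) are secreted liver proteins that were also high in brain or lung. Lgi3 (-4.29), Adam23 (-4.23), Scn3b (-4.12), a sodium channel subunit, Necab1 (-4.08), Nrn1 (-4.04), Slc1a2 (-4.02), the main glutamate carrier of glia, Fam171b (-4.0), Adcy8 (-3.78), Trhde (-3.77), Syt1 (-3.95) and Akap5 (-3.64) were high in brain and in liver or lung. Cyp2f2 (-4.04) had medians of 13.35 in liver and 13.39 in lung, 6.70 in kidney and 6.57 in brain.

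Kidney alone was lowest, called below each other tissue singly, for 90 genes (0.478%), against 556 for which it was highest. The counts are not like for like, since a lowest gene must be raised in all 3 other tissues and a highest gene in kidney only. Plxnc1, a semaphorin receptor, ran from 5.80 to 8.67 in kidney with a median of 6.37, against medians of 9.87 in brain, 10.24 in liver and 9.77 in lung and a lowest value elsewhere of 9.03. Its 102 kidney arrays all lay below every other array, and the gap to the nearest tissue was -3.38. Adam23 (gap -3.13), a neuronal cell-surface protein, ran from 4.43 to 6.41 in kidney and from 6.89 upwards elsewhere, and Gda (-2.85), guanine deaminase, from 5.14 to 7.54 and from 8.12 upwards. Neither overlapped.

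Vtn (-2.66), Abcd2 (-2.62), a peroxisomal transporter of very long fatty acids, Fam171b (-2.49), Serpina3n (-2.37), the cilia gene Rsph4a (-2.34), Trf (-2.33), transferrin, and Chsy3 (-2.26) completed the 10 widest gaps. For Abcd2 and Chsy3 all 102 kidney arrays lay below the rest, and for Vtn 89 did. Abcd2 was low while other peroxisomal genes of the list were high, with the related Abcd3 at 0.69.

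Low expression was often shared. Kidney and liver were both below brain and lung for 545 genes (2.90%), and 385 of the 1886 kidney-low genes belonged to these. Lgi3, Vsnl1, Adcy8, Scn3b, Spock2 (-3.15), Slc24a4 (-2.87), Mlc1 (-3.45), Chrm2 (-3.61), Nrcam (-3.01) and Ccdc85a (-2.30) had the widest margins, followed by Rasgef1a (-2.80), AI504432 (-2.90), Nell1 (-3.09), Adcy2 (-2.88) and Stmn2. Slc24a4 had a median of 4.92 in both kidney and liver, against 9.29 in brain and 9.16 in lung, with no overlap. Kidney and brain were low together for 215 genes (1.14%), led by Cyp2f2, Hc, the zinc carrier Slc39a4 (-3.28), Sec14l4 (-3.59) and haptoglobin, Hp (-2.42). Kidney and lung were low together for 93 (0.494%), led by Necab1, Ttr, Mmd2 (-2.22), Nrn1 and B3galt1 (-2.92).

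Genes high in kidney together with lung or brain were of other kinds. With lung they were led by Scnn1b, Napsa, Scnn1g, the integrin Itgb6 (4.38) and the epithelial keratin Krt7 (3.24). Napsa ran from 12.57 to 13.26 in kidney and from 10.59 to 12.17 in lung, with medians of 5.16 in brain and 5.88 in liver, and all kidney arrays lay above all lung arrays. With brain they were led by Calb1, the fucosyltransferase Fut9 (3.46), the peptide gene Cck (2.46), the integrin Itgb8 (3.64) and the nicotinic receptor subunit Chrna4 (2.74). Calb1 ran from 11.50 to 12.55 in kidney and from 10.71 to 11.41 in brain, against medians of 4.13 in liver and 4.04 in lung. Fut9 overlapped fully between kidney and brain, with medians of 9.10 and 9.30. With each array centred on its median, 340 genes were high and 151 low in kidney and lung, beside 489 and 93, and 193 high and 302 low in kidney and brain, beside 246 and 215.

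The solute carrier family showed how far the kidney profile reaches beyond its top markers. Of 321 Slc genes 112 were higher in kidney, 55 lower, 57 highest and 47 shared with liver. The family exceeded the share of all genes in both directions, with 34.9% higher against 9.18% and 17.1% lower against 10%. Slc1a2 (-4.02), Slc39a4 (-3.28) and the vesicular glutamate carrier Slc17a7 (-3.10) were the lowest. Claudins were higher in 10 of 23 genes (43.5%) and lower in 2 (8.70%, near the 10% of all genes). Cldn16, Cldn8 (5.04) and Cldn19 were at the top and Cldn18 (-2.12), Cldn5 (-1.06) and Cldn14 (-0.79) at the bottom. Of 11 aquaporins 7 were higher (63.6%) and 3 lower (27.3%), beside 9.18% and 10% of all genes. Aqp2, Aqp7 (5.29) and Aqp6 led, and Aqp9 (-3.05), Aqp5 (-1.78) and Aqp8 (-1.33) were lower.

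Of 84 cytochrome P450 genes 11.9% (10 genes) were higher in kidney, near the 9.18% of all genes, and 39.3% (33 genes) were lower, against 10% of all genes. Against liver 48 of the 84 were lower and 7 higher. Against brain 7 were lower and 21 higher, and against lung 9 were lower and 17 higher. The highest were Cyp2d12 (6.87), Cyp2j11 (6.33) and Cyp4a31 (5.79), and the lowest Cyp2f2, Cyp4f15 (-3.01) and Cyp2b10 (-2.73). Collagen genes were higher in 9 of 42 (21.4%) and lower in 1 (2.38%), Col25a1 (-1.04), beside 9.18% and 10% of all genes. Against brain 18 of the 42 were higher and 2 lower, against liver 10 and 1, and against lung 2 and 11. Col4a4 (2.39) and Col4a3 (2.29), which build the glomerular basement membrane, had the largest differences, with a kidney minus lung of 0.59 and 0.33, and Col26a1 (2.12) followed. Macrophage genes were lower in 4 of 12 cases (33.3%, against 10% of all genes) and higher in 0. Against brain 0 of these were lower and 1 higher, against liver 7 and 0, and against lung 5 and 0. Leukocyte genes were lower in 4 of 12 (33.3%) and higher in 1 (8.33%, near the share of all genes). Against brain 2 of the leukocyte genes were lower and 3 higher, against liver 2 and 2, and against lung 10 and 0. Vwf (-2.14) and Cldn5 were lower among 13 endothelial genes and Emcn (2.02) and Plvap (1.77) higher. That is 15.4% each way, beside 10% lower and 9.18% higher over all genes. Against brain 9 of the 13 were higher and 0 lower, against liver 4 and 0, and against lung 0 and 10.

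The kidney difference depended on the cross for 9615 genes (51.1%, F-test of the 9 within-cross differences, adjusted p under 0.05). The size of this dependence was modest, with a median range over crosses of 0.31 for all genes, 0.51 for kidney-high and 0.45 for kidney-low genes. Of the 1727 kidney-high genes 1704 were positive in all 9 crosses and 1260 reached 1 log2 unit in each of them, and of the 1886 kidney-low genes 1874 were negative in all 9. Variants of CAST, PWK or WSB that lie beneath a probe can alter its signal, and their part in these ranges was not tested.

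Some kidney-high genes were low in the kidney of 1 strain. Tm4sf5, a membrane protein, had a kidney mean of 5.61 ± 0.94 (SD, n = 12) in WSBxWSB and means from 10.95 to 12.01 in the other 8 crosses, so its kidney difference ran from -0.56 to 5.96. A single WSBxWSB array reached 8.53. Slc22a22, an organic anion carrier, was low in CASTxCAST only, at 3.69 ± 0.24 (n = 11) against 8.10 to 9.86 elsewhere. For both genes no array of another cross overlapped with the low strain.

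Sycn and Spink1, known as secretory genes of the exocrine pancreas, were high in the kidney of every cross with a WSB parent and low in the 4 crosses without, a contrast read from the values. Sycn stood at 11.46 ± 0.26 (SD, n = 12) in WSBxWSB, between 9.64 and 10.14 in the 4 F1 crosses with WSB and between 5.17 and 5.63 in the rest. Spink1 followed the same order, at 10.38 ± 0.30 in WSBxWSB, 9.14 to 9.43 and 4.18 to 4.33. The other 8 measured pancreas genes were not called in kidney, the largest difference being 0.58 for Cela1, and CASTxCAST liver replicate 5 and WSBxCAST liver replicate 10 had means of 11.72 and 8.61 over these 8 against a liver median of 5.19. Pvalb, the calcium buffer of the distal convoluted tubule, was at 4.83 ± 0.96 (n = 11) in CASTxCAST and from 7.16 to 10.18 elsewhere.

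Among kidney-low genes the widest ranges were those of Grp, a neuropeptide, Ces1g, a carboxylesterase, Amph, a synaptic protein, Apob, the main apolipoprotein of secreted lipid particles, and Fabp1, a fatty acid binding protein. Amph had kidney means of 8.85 ± 0.08 (SD, n = 11) in CASTxCAST, 7.99 to 8.18 in the 4 crosses of CAST with another strain and 5.33 to 5.79 in the rest. Apob was at 8.72 ± 0.28 (n = 12) in WSBxWSB, 7.58 to 8.45 in its F1 crosses and 5.57 to 5.91 in the 4 crosses without WSB. Fabp1 followed the order of Apob, at 8.20 in WSBxWSB, 7.28 to 7.87 and 5.07 to 5.73. These are means, and single arrays of crosses without WSB overlapped those with WSB. In PWKxPWK kidneys Apob reached 9.02 (SD 1.3) and Fabp1 8.62 (SD 1.65). Both genes are high in liver, with PWKxPWK liver means of 12.77 and 12.49, and 17 kidney arrays carried hepatocyte signal. The part of that signal in these values was not tested. Grp was at 8.73 in WSBxWSB, 8.20 and 8.22 in PWKxWSB and WSBxPWK, and 4.89 to 5.26 in the 4 crosses without WSB, with 6.90 and 6.80 in CASTxWSB and WSBxCAST. Its lung mean also varied, from 10.02 in CASTxPWK to 6.63 in WSBxWSB, and its kidney difference was -3.29 and 1.78 in these crosses. Ces1g was highest in PWKxPWK, at 7.21.

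**Figure D5:**
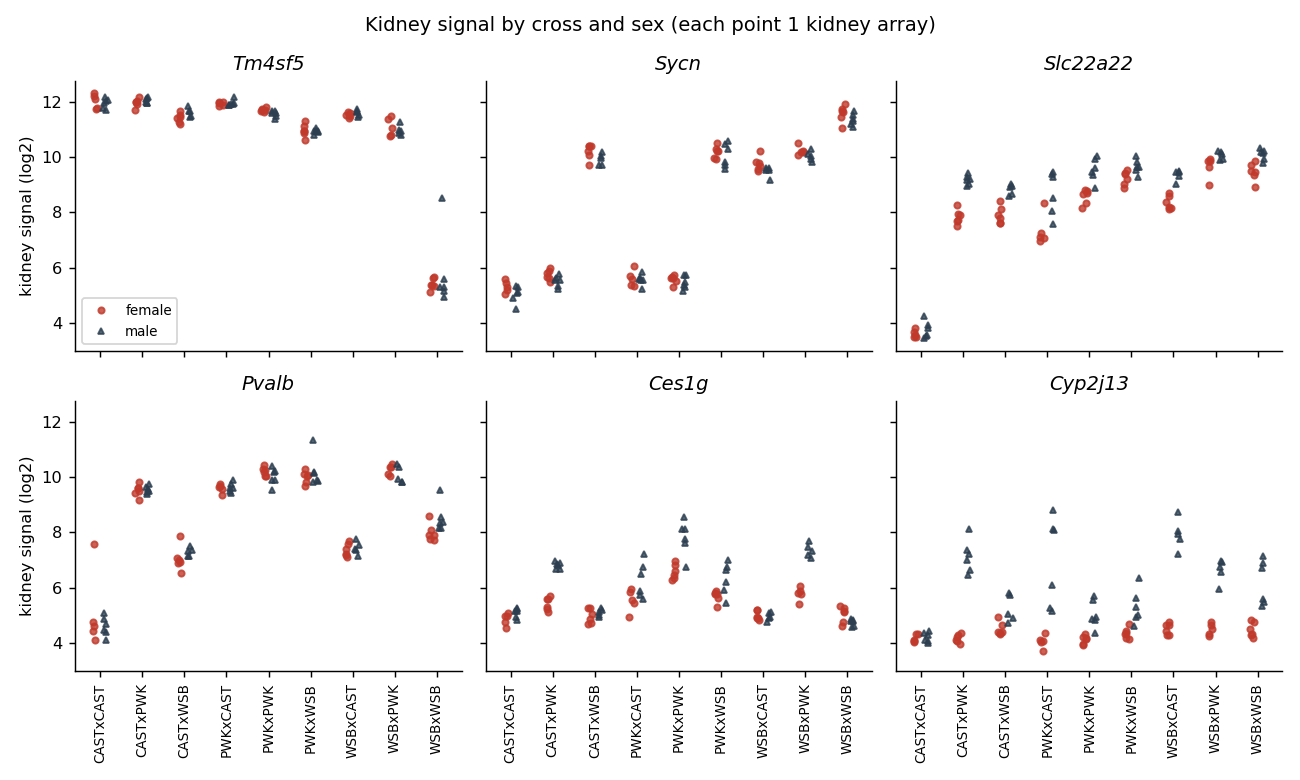
Log2 signal of 6 genes on the 102 kidney arrays by cross (dam first), with 1 point per array, circles for females and triangles for males. Tm4sf5 is low in WSBxWSB, Slc22a22 and Pvalb in CASTxCAST, Sycn in the 4 crosses without WSB, and Cyp2j13 reaches 8.82 in males and 4.93 in females.

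Sex changed the kidney difference of few genes: it was larger in females for 261 genes (1.39%) and smaller for 459 (2.44%) (limma, adjusted p under 0.05, with no size threshold). These counts moved with the arrays used. They fell to 98 and 159 without the 26 kidney arrays that carried adrenal genes, and became 889 and 201 when each array was centred on its median. For 2 arrays, a PWKxCAST brain and a PWKxWSB liver, the sex-linked genes went against the sex label. Without these arrays the counts were 245 and 425. Cyp2j13, an epoxygenase, had kidney values from 3.72 to 4.93 in females (median 4.32) and from 4.01 to 8.82 in males (5.75), and the sexes differed by -1.79 in the kidney difference. In CASTxCAST kidneys of both sexes it lay between 4.01 and 4.46.

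Akr1c21 (-1.14), a steroid reductase, the organic anion carriers Slc22a26 (-1.11) and Slc22a30 (-0.86), and Mogat1 (-0.85), which makes diacylglycerol, were also lower in females relative to the other tissues. A2m (1.64), a protease inhibitor, Ly6f (1.52), and Akr1c18 (1.22), which breaks down progesterone, were higher in females. A2m ran from 4.31 to 9.83 in female kidneys and from 4.72 to 7.44 in male ones, with medians of 7.69 and 5.72. These 8 kept their call and direction without the arrays with adrenal genes, with Akr1c18 at 0.86. Cyp11a1 (1.13) and Star (0.98), the adrenal genes themselves, did not: they gave 0.26 (limma adjusted p = 0.0702) and 0.15 (0.38) without those arrays.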

How the data were processed

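Total RNA from brain, kidney, liver and lung was measured on 102 kidney, 85 brain, 101 liver and 98 lung arrays. The authors deposited log2 signals per transcript cluster, and the tools listed in the submitters' processing notes are Affymetrix Expression Console and RMA. Whether the tissues were normalised together, and the genome build, are not given in the sources used here. Every array column was mapped to a sample by its name, with 0 left over.

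Of 35556 clusters, 21218 had 1 gene symbol, 1881 several and 12457 none. Clusters with 1 symbol gave 18820 genes, and where a gene had several clusters (1386 genes) the one with the highest mean was used. No filter on low signals was applied. Array medians ran from 5.89 to 6.36, and the number of arrays limits the precision.

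Differences were tested with limma 3.58.1 in R 4.3.3, fitted to all 386 arrays with 36 means per cross and tissue as coefficients (72 with sex). The spread was that of arrays about these means. The crosses were weighted equally, with Benjamini-Hochberg adjustment over all genes. A call needed an adjusted p under 0.05 and a difference of at least 1 log2 unit. A gene highest in kidney was called against each other tissue, and a shared gene was called in both tissues against both others. The dependence on cross and on sex needed the adjusted p alone. The fitting script was tested on simulated data with known differences.

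Tissues of an animal share it, by the animal number in the titles, and the correlation within animals over 1882 genes was 0.032. The fit with the animal as a replicate block is given with the alternatives, which also covered filters, scaling, gene summaries, thresholds and leaving out each cross.

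The genes named were the 20 highest and 20 lowest, the 10 widest gaps in each direction, the 15 genes in each direction shared with liver and 5 with lung or brain, the 5 widest ranges over crosses in each direction, 5 per sex, the ends of each family and members of the lists. The members and lists were chosen with earlier results of these data known. The grouping of Hox genes and the alternatives without arrays carrying genes of another organ were chosen after the values were seen. Promoter windows came from RefSeq.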

Additional observations from a re-analysis of the deposited data

Results flagged for a closer look

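In kidneys of WSBxPWK, the cross with 10 kidney arrays, single arrays stood apart from the other 9 for 6 of 40 genes examined. Replicate 10 had a log2 signal of 9.04 for Vtn, 9.03 for Ttr, 7.23 for Lcat and 6.95 for Pon1, against medians of 7.29, 7.09, 5.9 and 5.44. Replicate 8 had 10 for Cyp2f2 against a median of 6.57, and replicate 1 had 7.45 for Syt1 against 5.72. Chance marks about 5% of such groups.

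The kidney difference varied between crosses (limma F-test) by a range of 6.52 log2 units for Tm4sf5, 6.29 for Sycn, 6.13 for Slc22a22, 6.08 for Spink1 and 5.61 for Pvalb among kidney-high genes. Among kidney-low genes the range was 5.08 for Grp, 3.49 for Ces1g, 3.46 for Amph, 3.4 for Apob and 3.3 for Fabp1.

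The kidney difference of females minus that of males was -1.79 for Cyp2j13, -1.14 for Akr1c21, -1.11 for Slc22a26, -0.86 for Slc22a30 and -0.85 for Mogat1. It was 1.64 for A2m, 1.52 for Ly6f, 1.22 for Akr1c18, 1.13 for Cyp11a1 and 0.98 for Star.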

How the results depend on the processing

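Of the alternatives to named differences, ranges and sex differences, 1066 kept direction and call, 3 lost the call (Cyp11a1 at 0.257 and 0.076, Star at 0.146, each with adrenal genes left out or as a covariate) and 1 reversed, Star at -0.036 (adjusted p = 0.789) with adrenal genes as a covariate. The fit with the animal as a replicate block gave 1726 higher and 1886 lower genes and changed no count by over 1.5 times. A filter on the mean over tissues kept 11292 genes and gave 1143 lower genes, 1850 lower than brain, 335 highest in kidney and 153 with a larger difference in females. Because it removes genes low in kidney, a filter on the kidney mean gave 584 lower, 1401 lower than brain, 752 than liver and 1460 than lung, 310, 50 and 134 low together with liver, lung and brain, and 156 for females. Centring each array on its median gave 2201 genes lower than liver, 151 low with lung, 889 and 201 larger and smaller in females and 70 below every other array. At a threshold of 2 log2 units 661 genes were higher and 461 lower, with 1361 and 1700 against brain, 948 and 576 against liver and 787 and 796 against lung. At that threshold 281 were highest and 12 lowest, 235 and 123 were high and low with liver, 135 and 33 with lung and 82 and 46 with brain. Counts by sex also moved: 107 and 135 in animals with all 4 tissues, 98 and 159 without arrays with adrenal genes, and 141 and 231 without arrays with genes of another organ, the last 2 settings chosen after seeing the data. Leaving out each cross in turn gave 167 (without WSBxWSB) to 318 larger in females and 245 (without WSBxWSB) to 713 (without WSBxPWK) smaller, with 298 without PWKxCAST and 302 without PWKxWSB. Of 199 called genes with several clusters, 98 were not called from the dimmest cluster and 1 was called the other way, and the cause was not tested.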
